A study of Drosophila melanogaster with 3 samples.

Results

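The 35 aminoacyl-tRNA synthetase genes of Drosophila melanogaster were examined for binding of CG6254, a zinc finger protein, in whole embryos by chromatin immunoprecipitation and sequencing (ChIP-seq). The genes were chosen by their symbols in the Ensembl annotation, an amino acid code followed by RS, among 13945 protein-coding genes on the 6 main chromosome arms. They comprise 20 genes without a suffix, called cytosolic here, and 15 with the suffix -m, which encode enzymes of mitochondria. In the annotation the subunits of the cytosolic phenylalanine enzyme carry alpha or beta in front of the symbol, and both were counted. All samples belong to 1 group of 3 biological replicates: mixed-sex embryos of 0 to 14 h from a transgenic line whose CG6254 carries GFP at its C-terminus, precipitated with an antibody against GFP. The peak lists give ranks and signals but no read counts, so the depth of each replicate is unknown here. Neither untagged embryos nor input chromatin were analysed here, and the authors' control entered only through their peak calls.

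Aminoacyl-tRNA synthetases join each amino acid to its tRNA, the step that sets the meaning of the genetic code. Most animal cells keep a cytosolic and a mitochondrial set, both encoded in the nucleus. In mammals several cytosolic synthetases are held together with scaffold proteins in a multisynthetase complex, while others act alone or as small assemblies. These are housekeeping genes, needed in every cell that makes protein.

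A peak summit no further than 500 bp from a transcription start site (TSS) was taken as a promoter summit and the gene as bound. The sequences under such summits are shown for bound genes where the window holds no long untranslated stretch, and for ThrRS, whose summits came from the replicates alone. Each is the RefSeq sequence of the dm6 assembly from 50 bases before to 50 bases after the summit (for ThrRS, the middle one of the 3 replicate summits), shortened where an untranslated region begins and written 5′ to 3′ on the strand of the synthetase gene, with capitals for any match to the motifs searched. IleRS is at chr3L:22288449-22288549 on the plus strand, GluProRS at chr3R:23958478-23958578 on the minus strand, LeuRS at chr2L:3514657-3514729 on the minus strand and ThrRS at chr2L:12103479-12103579 on the plus strand.
IleRS: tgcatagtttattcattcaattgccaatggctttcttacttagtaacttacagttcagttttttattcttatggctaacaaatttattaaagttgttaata
GluProRS: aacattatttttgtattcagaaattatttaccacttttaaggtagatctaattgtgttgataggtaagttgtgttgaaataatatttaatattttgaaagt
LeuRS: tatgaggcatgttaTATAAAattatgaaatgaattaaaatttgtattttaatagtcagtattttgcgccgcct
ThrRS: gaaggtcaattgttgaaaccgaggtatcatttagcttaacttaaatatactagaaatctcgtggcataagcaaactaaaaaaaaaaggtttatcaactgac

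The tagged protein was found at promoters of cytosolic synthetase genes and, in the authors' reproducible list, at none of the mitochondrial ones. That list, the output of the irreproducible discovery rate procedure (IDR), held 4426 peaks. In it 6 of 35 synthetase genes were bound (17.1%, exact 95% interval 6.56 to 33.6), against 14.8% of all protein-coding genes, so the share over the whole family was near the background. The 6 genes were IleRS, GluProRS, SerRS, AlaRS, AspRS and LeuRS. They are 6 of the 20 cytosolic genes (30.0%, exact 95% interval 11.9 to 54.3), while the mitochondrial genes gave 0 of 15. A count of 0 allows a share of up to 20.0% by a limit of 3 counts, and up to 21.8% by the exact 95% interval. The background of 14.8% lies inside the exact intervals of both compartments, so this list alone sets neither apart from all protein-coding genes. These intervals and limits cover counting error only.

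The contrast between the compartments had the same direction in each replicate. In the strongest 4426 peaks of replicates 1, 2 and 3, 9, 6 and 7 of the 35 members were bound, against 16.4%, 16.0% and 12.6% of all protein-coding genes. Cytosolic genes made up 9, 6 and 6 of these, or 45.0%, 30.0% and 30.0% of their number. Mitochondrial genes were bound at 0%, 0% and 6.67%. Cytosolic genes averaged 35.0% ± 8.66 and mitochondrial genes 2.22% ± 3.85 (SD, n = 3 replicates), a difference of 32.8 ± 11.1 percentage points that was above 0 in 3 of 3 replicates. The exact two-sided sign-flip permutation test over the replicates gave p = 0.25, the smallest p that 3 replicates allow, so this design cannot give a lower one. The replicates were called against the same control, which they therefore share.

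**Figure D1:**
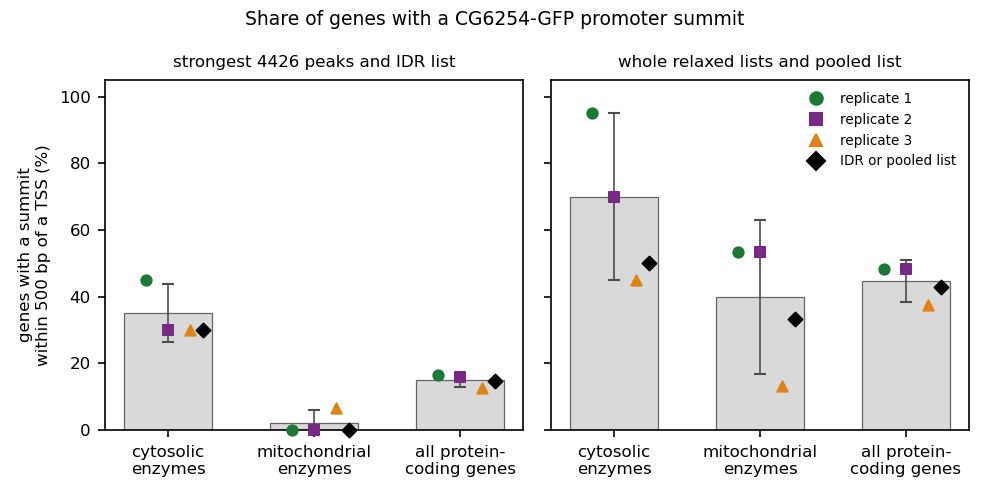
Share of genes (%) with a promoter summit, for cytosolic synthetases (20 genes), mitochondrial synthetases (15 genes) and all protein-coding genes (13945). The left panel uses the strongest 4426 peaks of each replicate and the IDR list, and the right panel the whole relaxed lists and the pooled list. Bars are means and error bars SDs over 3 replicates, coloured points are single replicates and black diamonds the IDR or pooled list. In the left panel the cytosolic genes lie above all genes and the mitochondrial genes at or below 6.67%.

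Among the bound genes IleRS, which charges tRNA with isoleucine, had the strongest peak. Its deposited signal in the pooled list was 521, rank 537 of the IDR list. In replicates 1, 2 and 3 the strongest promoter summit ranked 609, 463 and 745 of 30000, with signals of 126, 214 and 169. Each signal is the authors' value on an unstated scale and has meaning only within its own list. IleRS (FBgn0027086) faces Hem, a gene of the actin-regulating WAVE complex, across 470 bp. The peak ran from 22288412 to 22288596 on 3L and its summit at 22288499 lay in the intergenic stretch between them, 166 bp upstream of the IleRS start.

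GluProRS (FBgn0005674) encodes a fused enzyme that charges tRNA with glutamate and with proline. Its peak on 3R (23958320 to 23958735, signal 293, IDR rank 1510) ranked 2311, 1442 and 1529 in replicates 1, 2 and 3, with signals of 62.2, 121 and 107. The summit lay 137 bp upstream of the GluProRS start and 123 bp from that of AP-1sigma, a clathrin adaptor subunit gene that faces it across 260 bp. When a summit was given only to the gene of the nearest TSS, GluProRS was therefore not counted. Replicate 3 alone placed the summit nearer to GluProRS, at 117 bp. Replicate 1 held a second, weaker summit of rank 6220 at an internal start of the gene, 34 bp upstream of it.

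SerRS (FBgn0031497), the enzyme for serine, had the smallest spread of ranks (1.08-fold) among the 10 members with a summit in every replicate. They were 1755, 1625 and 1746 in replicates 1, 2 and 3, with signals of 71.1, 115 and 97.6, and 1561 in the IDR list (2L, 3037143 to 3037558, signal 286). This summit was the only one of the 6 downstream of its TSS, by 52 bp, in the 5' UTR of SerRS. The facing gene CG17260 starts 8 bp away on the other strand and has further starts on either side of the SerRS start, so a peak of either gene cannot be told apart from one of the other here. Replicate summits lay 44, 5 and 52 bp downstream of the SerRS start. SerRS was bound under all 13 other settings tried.

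The peak of AlaRS (FBgn0027094), the alanine enzyme, was the only one of the 6 without a facing gene within 1000 bp. It lay on 2L from 8381664 to 8382079 (signal 203, IDR rank 2682), with its summit 108 bp upstream of AlaRS in the 3' UTR of CG13392, a gene on the same strand. Ranks in replicates 1, 2 and 3 were 2687, 3726 and 3463, with signals of 57.0, 73.0 and 61.5 and summits 60, 36 and 108 bp upstream of the start. No other gene had a TSS within 500 bp of this summit.

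LeuRS and AspRS were the bound members most often lost under other settings. LeuRS (FBgn0284253; 2L, 3514471 to 3514886, signal 170, IDR rank 3549) ranked 3253, 4343 and 5182 in replicates 1, 2 and 3, with signals of 51.9, 67.8 and 46.7, so replicate 3 placed it outside its strongest 4426 peaks. The summit lay 23 bp upstream of LeuRS, the leucine enzyme, and CG17593 faces it across 216 bp. Replicate summits were 22 bp upstream, 152 bp upstream and 20 bp downstream of the LeuRS start. The replicate 2 summit was nearer to the start of CG17593, at 64 bp. When IDR peaks had to be matched in the strongest peaks of the other replicates, LeuRS was lost without replicate 1 and without replicate 2.

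The AspRS summit (FBgn0002069; 2R, 12879856 to 12880271, signal 176, IDR rank 3391) did not lie at the annotated 5' end of the gene. It was 220 bp upstream of an internal start of AspRS, the aspartate enzyme, within introns of AspRS and of Nmda1 on the other strand, and 166 bp from a start of Nmda1. Replicates 1, 2 and 3 ranked it 3710, 7825 and 1867 with signals of 48.4, 49.4 and 93.0, the widest spread of ranks (4.19-fold) among the members with a summit in every replicate. Near the annotated 5' end, where Lfg faces AspRS across 38 bp, the pooled list held a weaker summit of rank 9163. AspRS was bound under 5 of 13 other settings, and was lost, among others, with 1 TSS per gene, with a window of 200 bp, without replicate 1 and without replicate 3.

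**Figure D2:**
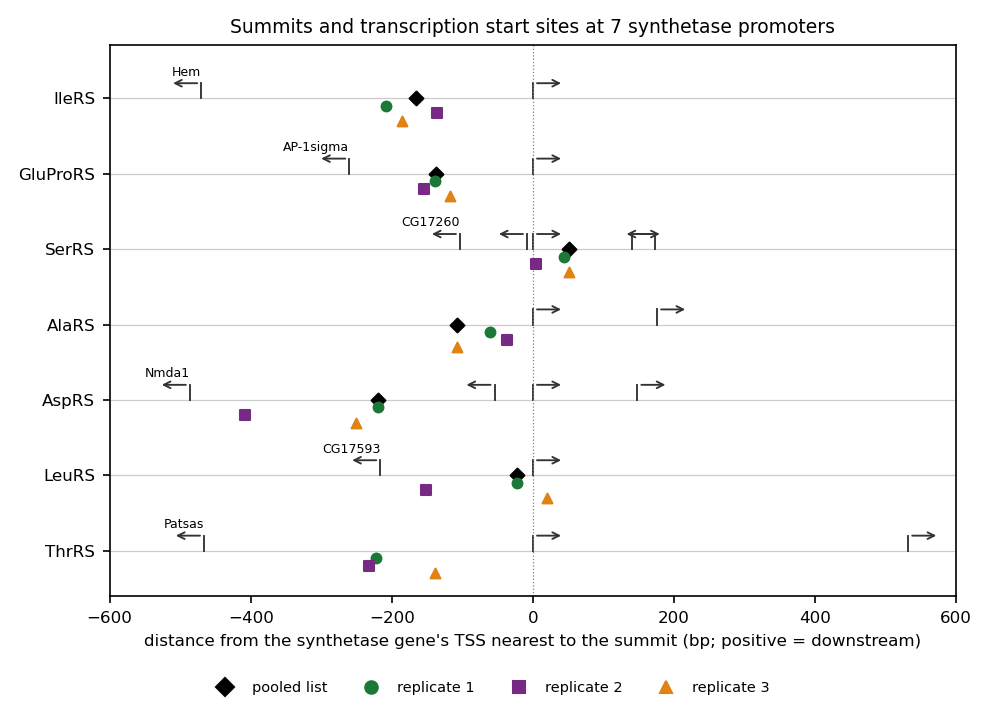
Position of summits (bp) relative to the TSS of the synthetase gene nearest to the pooled summit (for ThrRS, to the replicate summits), drawn so that the gene runs to the right. Arrows are TSSs with their direction, named where they belong to a neighbouring gene, and points are the strongest promoter summit of the pooled list and of each replicate. The SerRS summits and the replicate 3 summit at LeuRS lie downstream of the start, by 52 bp or less, and all others upstream, by up to 408 bp.

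ThrRS (FBgn0027081; 2L, 12103751 to 12107170) stood apart from the other members. Its promoter summit ranked 1122, 1604 and 1356 in replicates 1, 2 and 3, with signals of 91.3, 115 and 116, ahead of SerRS, AlaRS and LeuRS in each of them. Of the members, IleRS was ahead of it in every replicate and GluProRS in replicate 2 as well. The pooled list of 30000 peaks, called on these same replicates, nevertheless held no summit within 500 bp of ThrRS, and its nearest one was 5910 bp away. The replicate summits lay 222, 232 and 138 bp upstream of ThrRS, which encodes the threonine enzyme, in the 466 bp between it and the facing gene Patsas. Such cases were rare: of 1239 protein-coding genes bound in the strongest peaks of all 3 replicates, 9 (0.726%) had no promoter summit in the pooled list and 13 were not bound in the IDR list. ThrRS was thus bound in 3 of 3 replicates and unbound in the IDR count above. The 5 members bound in the strongest peaks of every replicate were IleRS, ThrRS, GluProRS, SerRS and AlaRS, all cytosolic, against 1239 of 13945 protein-coding genes. For the 10 members with a promoter summit in every whole replicate list, the signed distance to the member's nearest TSS was compared between replicates. Its SD (n = 3) ran from 18.6 bp at GluProRS to 89.7 bp at LeuRS. It was wider still at AspRS, whose replicate summits spanned 188 bp. At AspRS-m the SD of 42.5 bp understates the spread of positions, since replicate 3 was measured from another TSS. Replicates 1, 2 and 3 placed that summit at 16827265, 16827250 and 16826904 on 2L.

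Several members lay near the end of the IDR list or the edge of the window. AsnRS had pooled rank 4809 and ProRS-m pooled rank 5038, both just past rank 4426, and LeuRS at rank 3549 was the lowest-ranked member inside it. ProRS-m, for mitochondrial proline, was the only mitochondrial gene in the strongest peaks of any replicate, with rank 4011 in replicate 3, rank 6184 in replicate 1 and no promoter summit in replicate 2. Its summits lay nearer to a start shared by CG42304 and Snup than to its own. MetRS (rank 2740) and alpha-PheRS (rank 3697) were in the strongest peaks of replicate 1 alone, and their summits in replicate 2 ranked 16606 and 23737. These summits, too, lay nearer to a neighbour's start. In replicates 1 and 2 those of MetRS were 80 and 32 bp from CG15084, against 165 and 277 bp from MetRS. Those of alpha-PheRS were 115 and 102 bp from CG2129, against 122 and 135 bp from alpha-PheRS. By distance, AspRS at 220 bp was the outermost member inside the 500 bp window, and LeuRS-m, 860 bp from the IDR peak of rank 614, was the only member between 500 and 1000 bp.

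**Figure D3:**
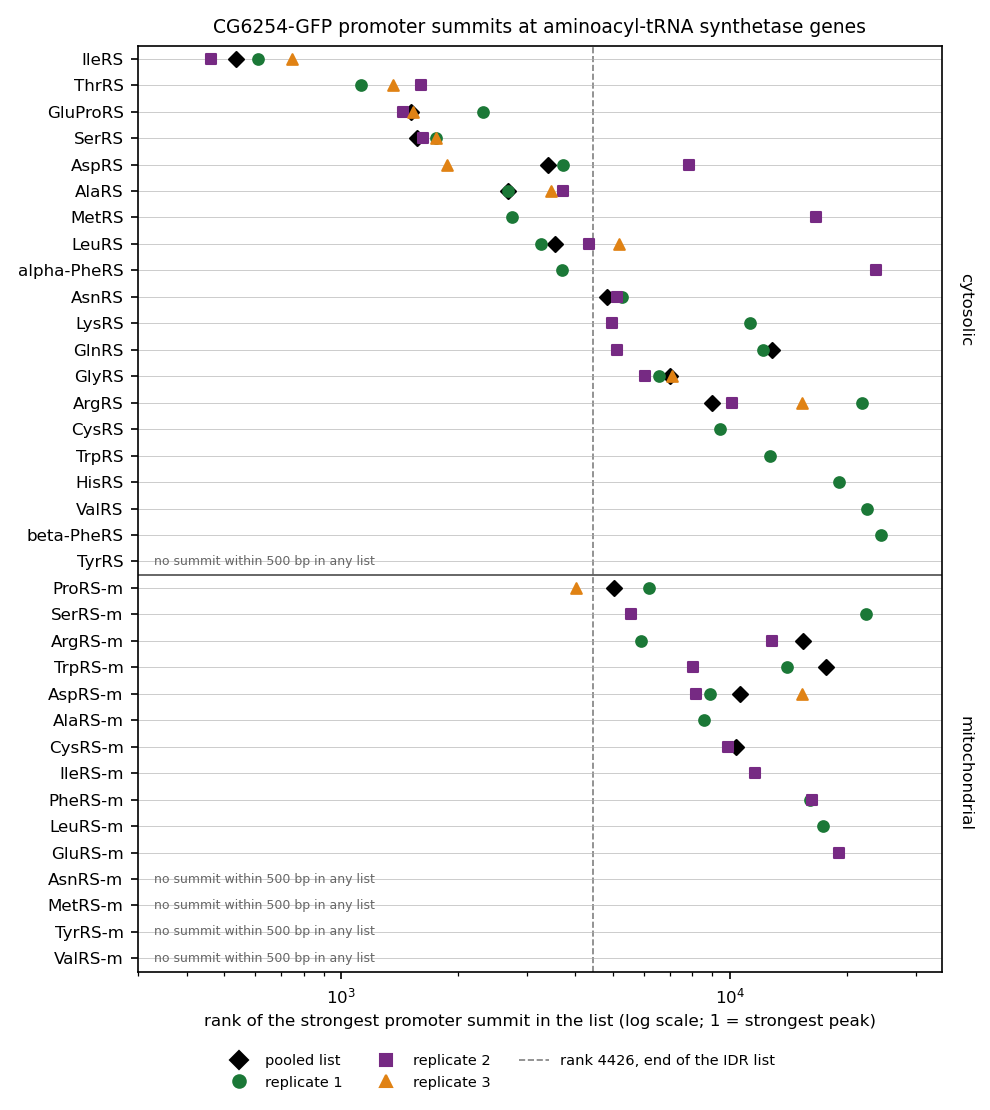
Rank of the strongest promoter summit at each of 35 synthetase genes (log scale, 1 is the strongest of 30000 peaks) in the pooled list and in each replicate, cytosolic genes above and mitochondrial genes below. The dashed line is rank 4426, where the IDR list ends. IleRS leads in every list, ThrRS has replicate points only, and ProRS-m in replicate 3 is the only mitochondrial point left of the line.

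The relaxed lists, which mix peaks with background by design, reached more of the family. In the pooled list 15 of 35 members were bound (42.9%), against 43.0% of all protein-coding genes, so the share over the family was near the background. These were 10 of 20 cytosolic (50%) and 5 of 15 mitochondrial genes (33.3%). Besides the 6 genes of the IDR list, the cytosolic ones were AsnRS, GlyRS, ArgRS and GlnRS. The mitochondrial ones were ProRS-m, CysRS-m, AspRS-m, ArgRS-m and TrpRS-m. In the whole lists of replicates 1, 2 and 3, 27, 22 and 11 members were bound (77.1%, 62.9% and 31.4%), against 48.3%, 48.4% and 37.4% of all genes. Cytosolic genes gave 19, 14 and 9 of 20, and mitochondrial genes 8, 8 and 2 of 15. Their difference was 30.0 ± 12.6 points (SD, n = 3, exact sign-flip permutation test, p = 0.25), above 0 in 3 of 3 replicates. Replicate 3 reached fewer promoters than the others for members and for all genes alike. GlyRS, the glycine enzyme, ranked 6552, 6047 and 7070 in replicates 1, 2 and 3, and ArgRS, the arginine enzyme, ranked 21810, 10130 and 15304. AspRS-m, the only mitochondrial gene with a summit in all 3 whole lists, ranked 8890, 8180 and 15323. AsnRS (ranks 5276 and 5122), GlnRS (ranks 12113 and 5104) and LysRS (ranks 11250 and 4977) had summits in replicates 1 and 2 and none in replicate 3. No list held a promoter summit at TyrRS, AsnRS-m, MetRS-m, TyrRS-m or ValRS-m. CysRS, TrpRS, HisRS, ValRS and beta-PheRS had one in replicate 1 alone, as had AlaRS-m and LeuRS-m, while IleRS-m and GluRS-m had one in replicate 2 alone.

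The enzymes for the same amino acid were set side by side, with GluProRS counted for each of its amino acids and each phenylalanine subunit for itself, which gave 16 pairs of a cytosolic and a mitochondrial gene. By rank in the pooled list the cytosolic gene had the stronger promoter summit in 9 pairs, the mitochondrial gene in 2 (the cysteine and tryptophan enzymes) and neither had one in 5. The cytosolic gene was stronger in 13, 10 and 8 pairs in replicates 1, 2 and 3, and the mitochondrial gene in 2, 4 and 0. These counts use the whole relaxed lists, where a summit of any rank counts as stronger than none. Only the cytosolic gene had a summit in 6, 5 and 6 pairs, and only the mitochondrial gene in 0, 3 and 0. For isoleucine, IleRS ranked 609, 463 and 745 in the replicates, and IleRS-m had a single summit, of rank 11618 in replicate 2. For serine, SerRS ranked between 1625 and 1755, while SerRS-m ranked 22419 and 5570 in replicates 1 and 2 and had no summit in replicate 3. GlnRS, GlyRS, HisRS, LysRS and ThrRS have no -m gene beside them in this family. They are called cytosolic only for lack of the suffix, and whether they also supply mitochondria was not examined.

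Among the cytosolic genes, 8 encode enzymes known in mammals as members of the multisynthetase complex. Of these 4 were bound in the IDR list (AspRS, GluProRS, IleRS and LeuRS), against 2 of the other 12 (AlaRS and SerRS) and 14.8% of all protein-coding genes. In the strongest peaks of replicates 1, 2 and 3 the counts were 5, 3 and 3 of 8, against 4, 3 and 3 of 12, with 16.4%, 16.0% and 12.6% of all protein-coding genes bound. In the strongest peaks of all 3 replicates 2 of the 8 and 3 of the 12 were bound, against 1239 of 13945 protein-coding genes. ThrRS is among the 12. Of the cytosolic enzymes with a class II catalytic core 3 of 10 were bound in the IDR list, of those with a class I core 2 of 9, and GluProRS carries both. These groups were formed with the values known and were not tested.

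Many synthetase genes stood at divergent promoters. A TSS on the opposite strand within 1000 bp upstream was found for 17 of 20 cytosolic genes (85.0%) and 7 of 15 mitochondrial genes (46.7%), against 39.6% of all protein-coding genes. Genes with such a neighbour were bound at 23.4% and genes without one at 9.18% over the whole annotation. Among cytosolic genes 5 of 17 with a facing gene and 1 of 3 without one were bound in the IDR list. Among mitochondrial genes it was 0 of 7 and 0 of 8. Annotated TSSs numbered 2 or more at 7 of 20 cytosolic and 2 of 15 mitochondrial genes, and at 26.5% of all protein-coding genes. How far the neighbours or the number of TSSs contribute to the difference between the compartments was not tested. At 4 of the 6 bound members the synthetase start was the nearest TSS to the summit, and at GluProRS and AspRS it was that of the facing gene.

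Summits at bound members lay mostly upstream of the TSS. In the IDR list 5 of 6 were upstream of the member's TSS (83.3%), as were 83.3% of those at all 2064 bound protein-coding genes. The median position was 122 bp upstream for members and 137 bp upstream for all bound genes. All 6 were within 250 bp of the TSS, against 72.9% of all bound genes. Their signals ran from 170 to 521 with a median of 245, and the median over all bound genes was 247. The strongest peaks of the whole list, with signals up to 15458.9, were not at synthetase genes.

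The sequence under the summits was poor in G and C. The summit base with 50 bp on each side held 25.7% GC at IleRS, 21.8% at GluProRS, 27.7% at SerRS, 23.8% at AlaRS, 33.7% at AspRS and 35.6% at LeuRS, a median of 26.7%. Over all 1888 IDR summits at promoters the median was 33.7%, with quartiles at 26.7% and 43.6%. Motifs known from fly promoters were searched on both strands within 50 bp of the summit. The TATA box core TATAAA was found at SerRS and LeuRS, against 20.8% of all promoter summits, and at LeuRS, where it is in capitals above, it lay 54 bp upstream of the annotated start, further than a TATA box usually does. The matches at SerRS lay downstream of its start, and so upstream of the CG17260 start that is 8 bp away on the other strand. None of the 6 windows held the DNA replication-related element TATCGATA (1.96% of promoter summits), the core of Ohler motif 1 GGTCACAC (1.48%), the E-boxes CAGCTG (3.92%) and CACGTG (1.22%), the cyclic AMP response element TGACGTCA (0.265%), the GAGA factor site GAGAG (12.8%) or TGATGNAA (1.01%), the core of the element through which ATF4 acts on synthetase genes in mammals.

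Over the promoters themselves, from 250 bp before to 50 bp after the most upstream TSS, the E-box CAGCTG was found at 17 of 35 synthetase genes (48.6%), against 17.7% of all protein-coding genes. These were 10 of 20 cytosolic and 7 of 15 mitochondrial genes, and 3 of the 6 bound members (GluProRS, IleRS and SerRS). TATCGATA was at 5 of 35 (AlaRS, ArgRS, IleRS, PheRS-m and TrpRS), against 9.36% of all genes, and GGTCACAC also at 5, against 7.70%. TGATGNAA was at 2 (beta-PheRS and CysRS), against 4.07%, and CACGTG also at 2, against 4.20%. GAGAG was at 6 of 35 (17.1%), against 29.7% of all genes, and TATAAA at 19 (54.3%), against 45.8%. TGACGTCA was at none of the 35, against 0.437%. A match describes the letters in the window and shows no bound factor.

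Genes that work with the synthetases were looked up in the same way. Of 17 such genes 4 were bound in the IDR list (23.5%, against 14.8% of all protein-coding genes): eEF1beta, eEF1gamma and eEF1alpha1 of the elongation factor that brings charged tRNA to the ribosome, and Gcn2, the kinase that senses uncharged tRNA. The peak of eEF1beta, a nucleotide exchange subunit, was stronger than that of any synthetase gene, with rank 63 in the IDR list and ranks 63, 68 and 59 in replicates 1, 2 and 3. That of eEF1gamma ranked 348, and 247, 428 and 616 in the replicates. The summits at eEF1alpha1 (rank 2278) and Gcn2 (rank 1549) were also in the strongest 4426 peaks of every replicate. Psi faces eEF1beta, ERp60 faces eEF1alpha1 and Ugt35D1 faces Gcn2 within 1000 bp, while eEF1gamma has no such neighbour. None of AIMP1, AIMP2 and AIMP3, the scaffold of the multisynthetase complex, was bound in the pooled list, and replicate 2 alone held weak summits at AIMP2 (rank 22104) and AIMP3 (rank 12314). Among mitochondrial partners, Slimp, GatA, GatB and GatC, which serve seryl-tRNA synthetase or make glutaminyl-tRNA by amidation, were not bound in the IDR list, and Slimp (rank 9719) and GatA (rank 9589) had weak pooled summits. The mitochondrial elongation factor gene mEFTu1 had pooled rank 4756 and mEFTu2 none. The ATF4 gene crc ranked 8845 in the pooled list, and eEF1alpha2, eEF1delta and the D-aminoacyl-tRNA deacylase gene Dtd had no pooled summit.

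**Figure D4:**
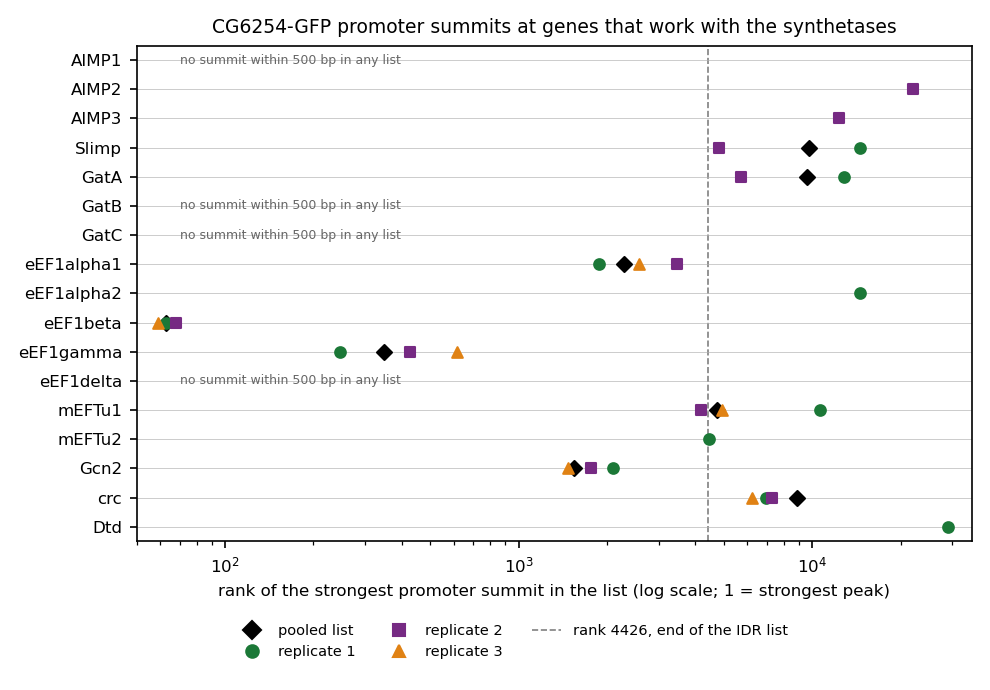
Rank of the strongest promoter summit (log scale, 1 is the strongest of 30000 peaks) at 17 genes that act with the synthetases, in the pooled list and in each replicate. The dashed line is rank 4426, the end of the IDR list. The eEF1beta points lie between ranks 59 and 68, while the AIMP genes have no pooled point.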

How the data were processed

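The authors deposited peak lists on dm6 and dm3. Per the deposited readme texts, a relaxed list was called on each replicate, and a pooled one on the 3 together, against 1 control alignment, and IDR was run on these lists. Aligner, peak caller, versions, filters, IDR threshold and sequencing depth were each not given in the sources used here. The signal that the authors deposited for each peak is the caller's value on an unstated scale, used only to rank or describe peaks within a list. The 4426 IDR peaks were the 4426 strongest of the pooled list. The dm3 lists were not used, since no dm3 annotation was at hand.

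Genes and TSSs came from Ensembl release 115 of the dm6 assembly, without transposable elements, and sequence from the RefSeq copy. A summit is the peak start plus the deposited offset, counting from 1. For most peaks it is the middle of an interval of fixed width. All TSSs of a gene counted, and a summit counted for every gene within 500 bp. Replicate lists were used whole and at their strongest 4426 peaks. Exact intervals are Clopper-Pearson. The compartments were compared over replicates by an exact sign-flip permutation test. Genes are not replicates, so no test was run over them. The sign-flip p-values concern only these 3 replicates, which share a control. Such a p-value is 0.25 whenever all 3 differences have the same sign, whatever their spread. Assignment was tested on planted summits. Python 3.11.15, numpy 2.4.6 and scipy 1.17.1 were used.

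The members, the related genes, the motifs and the rule for the genes described (bound members, then members in at least 2 replicates, then those just outside the limits) were chosen with earlier results of these data known. Lists given by symbol were matched to the annotation by symbol, disregarding capitals (17 of 17 related genes).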

Additional observations from a re-analysis of the deposited data

How the results depend on the processing

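The count of 6 bound members stayed between 4 and 9 under 12 of 13 other settings: promoter windows of 200 and 1000 bp, protein-coding transcripts, 1 TSS per gene, the TSS inside the interval, the nearest TSS, each replicate left out and each replicate alone. With only the strongest 2213 IDR peaks it was 3 (IleRS, GluProRS and SerRS), since that list is shorter. Leaving out a replicate gave 4 to 5 members. A mitochondrial gene was counted under 2 of the 13 settings, LeuRS-m with the window of 1000 bp and ProRS-m in replicate 3 alone. The difference between cytosolic and mitochondrial genes was above 0 under all 14 other settings, with a mean of 20.0 points for 2213 peaks per replicate, 22.8 for a TSS inside the interval, 23.3 for the nearest TSS and 30.0 for whole lists, and 26.7 to 37.5 points when a replicate was left out. IDR peaks kept without a replicate were still shaped by it, so these sets understate the spread. Within 25 and 100 bp of the summit in place of 50, TATAAA was found at 1 and 3 members, and at 100 bp TATCGATA and CAGCTG at 1 each. No paired analysis was possible because there is no second group of samples to pair, and the 2 compartments are sets of genes compared within each replicate. Unknown depth and the small number of members limit these counts.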

Other observations

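Peaks in gene bodies were counted for the family without a matching share over all protein-coding genes, so the count only describes these genes. IDR summits inside a synthetase gene body were found at AspRS and SerRS only, 1 each, and these are the promoter summits described above. The unbound members lay at varied distances from the nearest IDR summit: 1871 bp for alpha-PheRS, 2022 bp for PheRS-m (a peak of rank 1020), 3313 bp for AsnRS-m, 3655 bp for CysRS-m (rank 302) and 37841 bp for ThrRS.

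By arm, 3 of 6 members on 2L were bound in the IDR list. It was 1 of 8 on 2R, 1 of 10 on 3L, 1 of 7 on 3R and 0 of 4 on X. Over the arms together 14.8% of all protein-coding genes were bound. These counts are too small to rank the arms and were not tested. ThrRS, bound in the replicates alone, is a further member on 2L.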
